A study of Homo sapiens with 18 samples.

Results

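The HMGA2 locus was described here through the histone marks deposited on it, as the summits of called ChIP-seq peaks in the hg19 window 12:66150001-66420000. HMGA2 lies on the plus strand, and its start was taken at 66218 kb, so the window reaches 68 kb upstream and 202 kb downstream of it. All summits of the 13 deposited lists that fall in this window of 270 kb were taken, which gave 310 of 947675 summits. The window was chosen by measured values: H3K27ac summits were denser there after TGF-β treatment than in untreated cells. The number of H3K27ac summits in treated against untreated cells is therefore given as a description, and nothing is tested or supported with it.

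HMGA2 encodes a small chromatin protein that binds AT-rich DNA through its AT-hook motifs and bends it. The gene is active in embryonic tissue, is low or off in most adult tissue and is expressed again in many carcinomas, including lung adenocarcinoma, and its mRNA is a target of the let-7 microRNAs. In mouse mammary epithelial cells, TGF-β induces the gene through SMAD proteins, and its protein takes part in the epithelial-mesenchymal transition. H3K27ac, the acetylation of histone H3 at lysine 27, is found at active promoters and enhancers. H3K4me1 is found at enhancers, active or not, and on the flanks of promoters, and H3K4me3 is concentrated at promoters.

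The study profiled these 3 marks in 4 conditions of human lung adenocarcinoma cell lines, with 1 library per mark and condition except for untreated H3K27ac, which had 2 libraries labelled as biological replicates. TGFb stands for H2087-LCC cells given TGF-β1, labelled as 100 nM for 4 days, SO1 for the cells labelled H2087-LCC-SO1, H2030 for a separate lung adenocarcinoma line and LCC for untreated H2087-LCC cells. H2087-LCC and SO1 cells grew in a medium with added hydrocortisone, selenite, insulin, transferrin and epidermal growth factor, which also holds for the treated cells as far as the labels say, while H2030 cells grew in a simpler medium. Of the 18 samples, 13 had a summit list and the 5 inputs were not analysed here. H2030 therefore differs from LCC in line and in medium, and what each contributes cannot be told apart. How SO1 was derived, and whether it is 1 clone, is not given in the sources used here.

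A list gives 1 position and 1 score per peak, with no width and no read count. The authors' score behaves as the −log10 of a p- or q-value and grows with depth, which is unknown, so scores were used to rank and filter peaks within a list. The percentile of a score is its place among all scores of its own list. Lists held between 50663 and 68118 summits for H3K27ac, between 128146 and 143843 for H3K4me1 and between 25691 and 28889 for H3K4me3. The LCC H3K27ac lists differed in length, with 50663 summits in replicate 1 and 62986 in replicate 2, and shared no identical position in the window.

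**Figure D1:**
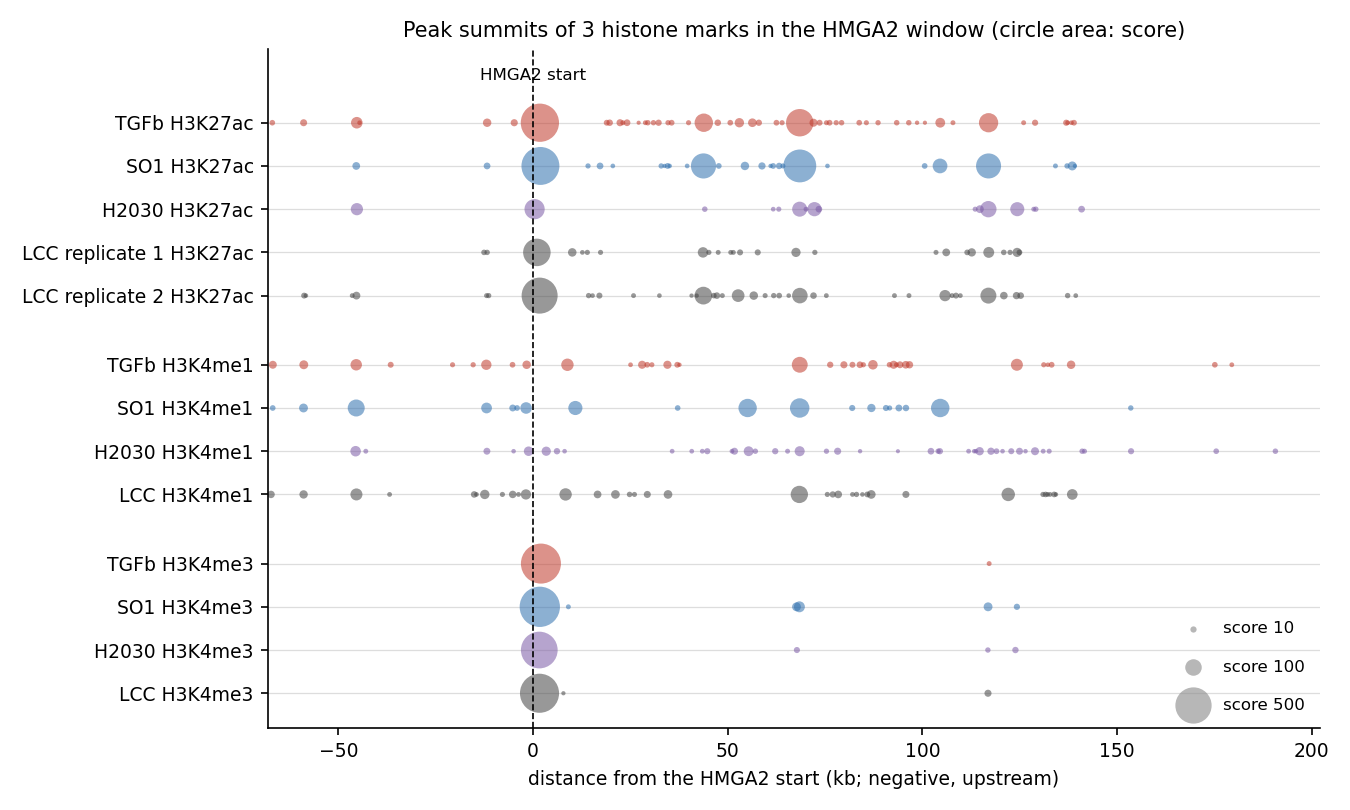
Summits of the 3 marks by distance from the HMGA2 start in kb (horizontal axis, negative upstream), with 1 row per library and circle area proportional to the authors' score. H3K27ac and H3K4me3 had their highest score next to the start in every list, further H3K27ac summits of high score stood 43.9, 68.0 and 117 kb downstream, and no H3K27ac summit lay more than 141 kb downstream.

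The start of HMGA2 carried H3K27ac and H3K4me3 in all 4 conditions, untreated LCC cells included. The highest H3K27ac score of the window lay there in each of the 5 lists. The score was 557 in TGFb at 12:66219760, 547 in SO1 at 12:66219900, 152 in H2030 at 12:66218402, 285 in LCC replicate 1 at 12:66218988 and 493 in LCC replicate 2 at 12:66219695. These summits lay between 0.402 kb (H2030) and 1.90 kb (SO1) downstream of the start. Within its own list, the summit at the start ranked 23rd of 68069 in TGFb, 69th of 56279 in SO1, 59th of 50628 in LCC replicate 1 and 7th of 62947 in LCC replicate 2. In H2030 it ranked 9071st of 52414, at percentile 82.7. In the TGFb, SO1 and LCC lists the start was among the strongest acetylated places of the genome, and in H2030 it was acetylated but far from the head of its list.

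H3K4me3, the promoter mark, also peaked beside the start in each list. It scored 610 in TGFb, 618 in SO1, 513 in H2030 and 582 in LCC. These were at percentile 95.2 of the TGFb list, percentile 92.0 of SO1, percentile 80.6 of H2030 and percentile 98.0 of LCC. The summits fell within 420 bp of each other, 1.61 kb downstream of the start in H2030, 1.67 kb in LCC, 1.74 kb in SO1 and 2.03 kb in TGFb. The TGFb summit is thus just outside the 2 kb taken as the start and is given here for its nearest summit. A promoter mark at the start is what the label of the locus calls for, and it was found in all 4 conditions.

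H3K4me1 flanked the start and left a gap over it. The nearest upstream summit lay 1.64 kb away in TGFb, 1.78 kb in SO1, 1.14 kb in H2030 and 1.82 kb in LCC, and its score was 22.6 in TGFb, 46.5 in SO1, 29.8 in H2030 and 35.6 in LCC. On the gene side, the first H3K4me1 summit came 8.84 kb downstream in TGFb, 10.9 kb in SO1, 3.40 kb in H2030 and 8.36 kb in LCC. No list had an H3K4me1 summit within 1 kb of the H3K27ac summits at the start. In the RefSeq gene order, the transcribed pseudogene RPSAP52 and the long noncoding RNAs HMGA2-AS1 and HMGA2-AS2 overlap HMGA2. Histone marks carry no strand, so a summit on the overlap cannot be given to 1 of these genes.

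Downstream of the start, 3 places carried H3K27ac in every list. Summits of a mark were merged within 1 kb over its lists into elements, which gave 62 H3K27ac elements, and an element counted as marked in a library with a summit in it. Elements are named by the distance of their centre from the start, and 4 of the 62 were marked in every library: that at the start and those at 43.9, 68.0 and 117 kb. Genome-wide, 17.8% of H3K27ac elements were marked in every library.

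Next to the start, the highest H3K27ac score in the window belonged to the element 68.0 kb downstream (12:66285539-66286535). H3K27ac scored 283 there in TGFb, 410 in SO1, 81.6 in H2030, 27.8 in LCC replicate 1 and 88.0 in LCC replicate 2. Among the H3K27ac summits of the window it had rank 2 in TGFb and SO1, rank 3 in H2030 and rank 4 in both LCC lists. Within the lists it stood at percentile 93.8 in TGFb, percentile 98.4 in SO1, percentile 73.6 in H2030, percentile 70.5 in LCC replicate 1 and percentile 84.8 in LCC replicate 2. H3K4me1 was strongest in the window at the same place in TGFb, SO1 and LCC, with scores of 91.9 in TGFb, 140 in SO1, 33.8 in H2030 and 110 in LCC. Within their lists these were at percentile 99.4 in TGFb, 99.5 in SO1, 90.2 in H2030 and 99.6 in LCC. The element thus joins strong H3K27ac with strong H3K4me1, and it is the only one of the 4 elements marked in every library that had an H3K4me1 summit within 1 kb in all 4 conditions. It also had H3K4me3 in SO1 with 2 summits, the higher scoring 41.0, and in H2030 with a score of 9.30, and no H3K4me3 summit in TGFb and LCC.

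The element 43.9 kb downstream (12:66261661-66262115) had H3K27ac scores of 125 in TGFb, 237 in SO1, 6.75 in H2030, 37.2 in LCC replicate 1 and 116 in LCC replicate 2. It was at percentile 29.3 of the H2030 list and between percentiles 76.9 and 90.8 of the TGFb, SO1 and LCC lists. Only H2030 had H3K4me1 within 1 kb of it, with a highest score of 9.39. The element 117 kb downstream (12:66334944-66335049) had H3K27ac scores of 137 in TGFb, 235 in SO1, 97.7 in H2030, 40.7 in LCC replicate 1 and 93.0 in LCC replicate 2, all between percentiles 76.1 and 90.7. It carried H3K4me3 of low score in every condition, 4.30 in TGFb, 25.2 in SO1, 6.17 in H2030 and 14.3 in LCC. Apart from the start, no other H3K4me3 element of the window was marked in all 4 conditions.

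**Figure D2:**
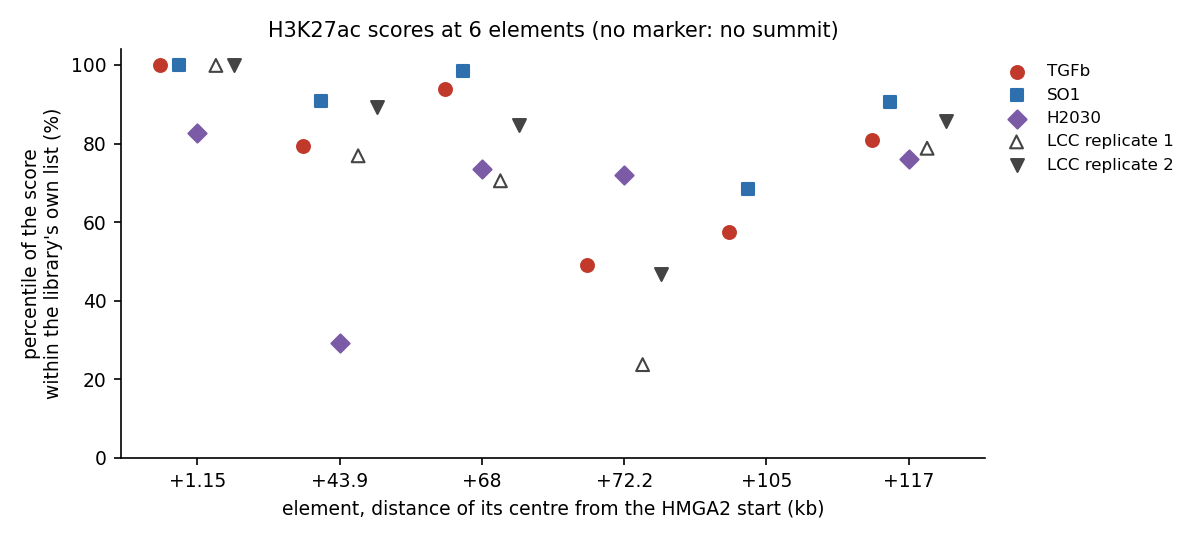
Percentile of the H3K27ac score within its own list (vertical axis, %) at 6 elements, by the distance of their centre downstream of the HMGA2 start in kb, with 1 marker per library and no marker where the list has no summit. The start stood at about percentile 99.9 or above in the TGFb, SO1 and LCC lists and at percentile 82.7 in H2030, the element at 43.9 kb was low in H2030, and that at 105 kb had markers for TGFb and SO1 only.

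Further elements differed in which conditions carried them. The highest-scoring H3K27ac element marked only in TGFb lay 4.83 kb upstream of the start, at 12:66213175, with a score of 14.6 at percentile 43.0 of the TGFb list. H3K4me1 was present within 1 kb of it in all 4 conditions. The highest one marked only in SO1 lay 54.4 kb downstream with a score of 22.4, beside an SO1 H3K4me1 summit of score 124 that stood 55.1 kb downstream. In H2030 it lay 114.8 kb downstream with a score of 18.6. The highest one marked only in LCC lay 106 kb downstream and was present in both replicates, with scores of 18.3 and 43.9.

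That LCC element had close neighbours in the other conditions. At 104.6 kb downstream (12:66322537-66322595), an element chosen after its values were seen had H3K27ac scores of 31.8 in TGFb and 78.5 in SO1 and no summit in H2030 and in either LCC replicate. SO1 also had an H3K4me1 summit there with a score of 126, the second highest H3K4me1 score of its window, while TGFb and LCC had none within 1 kb. The LCC summits of the 106 kb element lay just over 1 kb further downstream, and LCC replicate 1 had a summit of score 4.68 at 103.5 kb, just over 1 kb the other way, so these summits count as separate elements by a small margin. Whether they mark 1 place or neighbouring places cannot be read from summits without widths.

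Upstream of the gene, 2 elements chosen after their values were seen were shared by several conditions. The one 45.0 kb upstream had H3K27ac scores of 46.6 in TGFb, 18.1 in SO1, 52.5 in H2030 and 18.6 in LCC replicate 2, with none in LCC replicate 1. H3K4me1 lay on it in every condition, with scores of 45.4 in TGFb, 106 in SO1, 37.4 in H2030 and 50.6 in LCC. The other lay 12.0 kb upstream, with H3K27ac scores of 22.2 in TGFb, 12.6 in SO1, 6.91 in LCC replicate 1 and 5.49 in LCC replicate 2 and none in H2030. Within the gene, the element 72.2 kb downstream, also chosen after its values were seen, stood at its highest percentile in H2030. Its H3K27ac score was 72.7 in H2030, at percentile 72.1, and 20.0 in TGFb, 5.67 in LCC replicate 1 and 11.6 in LCC replicate 2, with no summit in SO1.

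The comparison that chose the window set H3K27ac in TGFb against LCC. The window held 51 summits in TGFb, against 25 in LCC replicate 1 and 39 in LCC replicate 2. Scaled to list length, these were 7.49 summits per 10000 in TGFb (Wilson 95% interval 5.70 to 9.85), 4.94 in LCC replicate 1 (3.35 to 7.29) and 6.20 in LCC replicate 2 (4.53 to 8.47). The intervals cover counting error only, and that of TGFb overlaps both others. TGFb was higher than each replicate, at 1.52 times replicate 1 and 1.21 times replicate 2. Replicate 2 was itself 1.25 times replicate 1, where 2.66% of tiles were called higher and 1.67% lower in replicate 2. The ratio to the LCC mean of 5.57 ± 0.889 (SD, n = 2) was 1.35, and leaving out each LCC replicate gave 1.21 and 1.52.

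**Figure D3:**
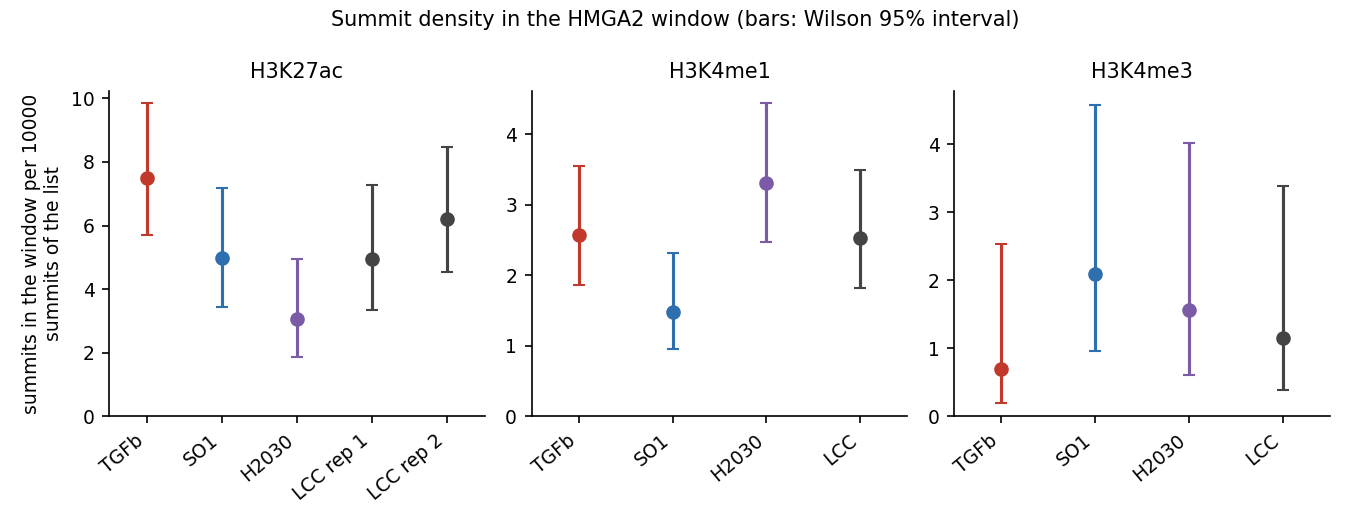
Summits in the HMGA2 window per 10000 summits of each list (vertical axis) for the 3 marks, with Wilson 95% intervals as bars and 1 point per library. For H3K27ac the values were 7.49 in TGFb, 4.98 in SO1, 3.05 in H2030 and 4.94 and 6.20 in the LCC replicates, and for H3K4me3 the intervals are wide because the window held between 2 and 6 summits.

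Against the rest of the genome, that difference was modest in size. Chromosomes 1 to 22 and X were divided into tiles of the same length as the window, and a tile was called at 2-fold over LCC, with the worth of 1 summit added, against both replicates for H3K27ac. The HMGA2 window was not called, and 1.67% of the 5644 tiles with at least 3 summits on average were called higher in TGFb and 0.886% lower. Its ratio on that scale was 1.33, the median tile had 0.960, and 866 tiles (15.3%) had a ratio at least as high. The window stood apart by its number of summits instead. It had the second highest count of all 9959 tiles in TGFb, the 32nd in SO1, the 764th in H2030, the 63rd in LCC replicate 1 and the 11th in LCC replicate 2. The window was thus dense in H3K27ac summits in both LCC replicates as well.

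**Figure D4:**
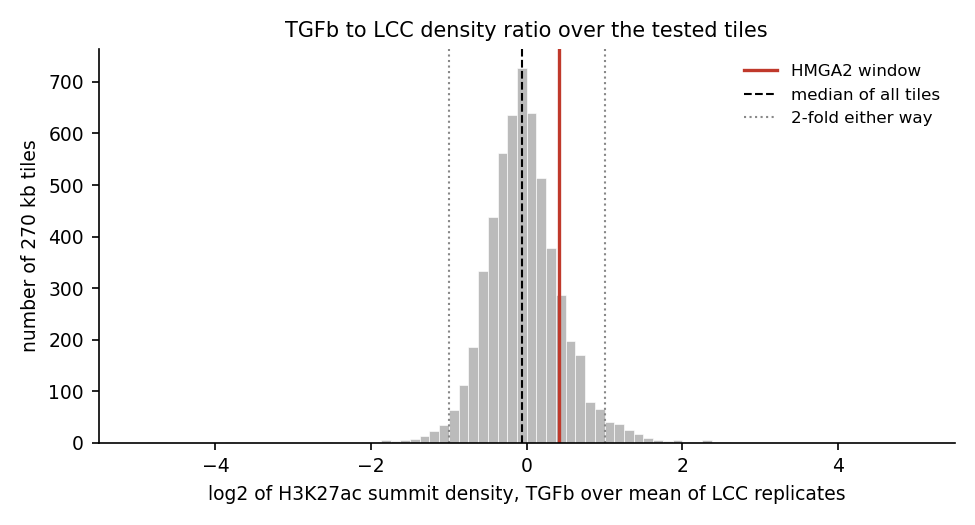
Number of 270 kb tiles (vertical axis) by the log2 of the H3K27ac summit density in TGFb over the mean of the LCC replicates, with 1 summit added (horizontal axis). The red line marks the HMGA2 window at a ratio of 1.33, to the right of the median of 0.960 (dashed) and inside the dotted lines at 2-fold either way.

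The H3K27ac summits of the window were mostly of low score, in TGFb and in LCC alike. Of the 51 TGFb summits, 18 scored at least 10, against 8 of 25 in LCC replicate 1 and 13 of 39 in LCC replicate 2. Summits of at least this score made up 35.3% of the window and 65.2% of the whole list in TGFb, 32.0% and 56.6% in LCC replicate 1 and 33.3% and 57.1% in LCC replicate 2. The median score in the window was 7.69 in TGFb, against a median of 20.9 over its list. Counting summits of a score of at least 10 alone, the density ratio of TGFb to LCC was 1.27.

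The 40 kb that follow the start held the largest difference in number. TGFb had 14 H3K27ac summits there, against 5 in LCC replicate 1 and 6 in LCC replicate 2. With scores of at least 10 it had 5, against 2 and 1. From 40 to 80 kb downstream TGFb had 15, against 9 and 15 in the LCC replicates, and from 80 to 120 kb it had 10, against 5 and 7. With scores of at least 10 these were 7 against 2 and 6, and 2 against 3 and 2. From 120 to 160 kb the numbers were 6 in TGFb and 4 and 5 in LCC, and upstream of the start they were 6 in TGFb and 2 and 6 in LCC. With scores of at least 10 these were 0 against 1 and 3, and 4 against 0 and 1. Beyond 160 kb no list had an H3K27ac summit. These counts are not scaled to list length, and the TGFb list was the longest. Per 10000 summits of the list, TGFb was above both replicates in the first 40 kb (2.06 against 0.988 and 0.953). The same held from 80 to 120 kb (1.47 against 0.988 and 1.11) and, by less, from 120 to 160 kb (0.881 against 0.790 and 0.794). LCC replicate 2 was above TGFb from 40 to 80 kb (2.38 against 2.20) and upstream (0.953 against 0.881).

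**Figure D5:**
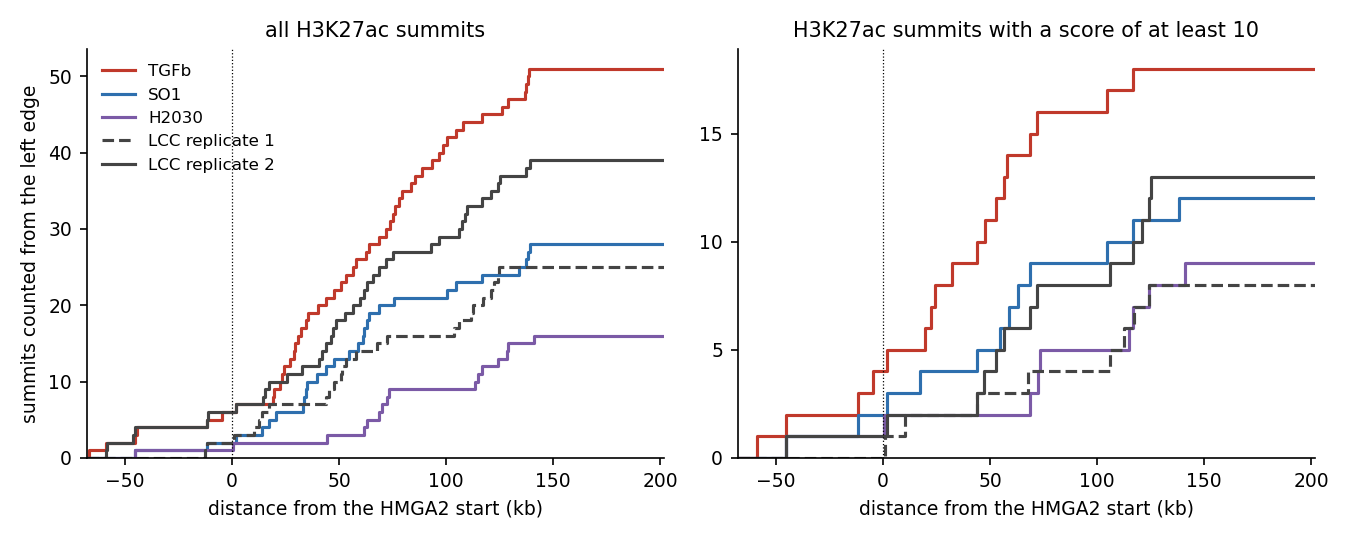
Running number of H3K27ac summits (vertical axis) from the left edge of the window by distance from the HMGA2 start in kb, for all summits (left) and for summits with a score of at least 10 (right), with 1 line per library. The TGFb line ends at 51 and 18, against 25 and 8 in LCC replicate 1 and 39 and 13 in LCC replicate 2.

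In TGFb most of the H3K27ac summits of the window formed 1 long run, which did not include that at the start. Summits of a list were joined into domains where the gap was at most 10 kb. The longest domain reached from 18.9 to 138.9 kb downstream in TGFb (12:66236933-66356944), with 44 summits over 120 kb. It held more summits than any other of the 34208 H3K27ac domains of that list and was the second longest of them. That rank by summits was 5 with joins of 20 kb and 247 with scores of at least 10. The longest domain of the window was 28.7 kb with 9 summits in LCC replicate 1 and 61.1 kb with 20 summits in LCC replicate 2. The ratio of TGFb to the LCC mean was 2.67, and it was 4.18 without replicate 2, 1.97 without replicate 1 and 1.66 with joins of 20 kb. With lists of equal length, the longest domain was 64.85 kb in TGFb and 28.5 kb on average in LCC, a ratio of 2.27. The length in TGFb rests on summits of low score: with scores of at least 10, the longest domain was 14.1 kb in TGFb and 15.6 kb on average in LCC, a ratio of 0.908.

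Among the 62 H3K27ac elements, 18 (29.0%) were marked in TGFb and in no LCC library, and genome-wide this was so of 16.6% of 100455 elements. The reverse pattern, in both LCC replicates and not in TGFb, applied to 4 elements (6.45%), with 3.71% genome-wide. The contrast is the one that chose the window, so these shares are a description. The LCC replicates also differed from each other: 17 elements (27.4%) were in replicate 2 and not in replicate 1, with 17.0% genome-wide. In the other direction, 8 (12.9%) were in replicate 1 and not in replicate 2, with 6.04% genome-wide. Both shares between the replicates were above their genome-wide values. They require absence from 1 library only, so they are not on the same footing as the 18 and the 4. Against a single replicate, TGFb had 30 such elements without LCC replicate 2 and 19 without LCC replicate 1.

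The 18 elements were mostly weak. Their TGFb scores lay between 1.63 and 31.8 with a median of 6.85, and 5 reached 10. The 22 elements marked in TGFb and in at least 1 LCC library had a median of 10.8, and 13 reached 10. The nearest LCC H3K27ac summit was between 1.03 and 8.45 kb away from the 18, at a median of 2.80 kb. Merging within 1 kb sets the lower end. The median gap between neighbouring H3K27ac summits of 1 list in the window was 2.80 kb in TGFb and 2.92 and 2.89 kb in LCC replicates 1 and 2. A gap is not on the same footing as the distance to the nearest summit of either LCC replicate. A place inside a gap is always nearer to 1 of its ends than the gap is long. The number of elements of this pattern depended on how summits were merged and on replicate 2: it was 30 with merging within 500 bp, 6 within 2000 bp, 9 with scores of at least 10 and 30 without LCC replicate 2. With lists of equal length the number was 12. Of the 18, 3 were also marked in SO1 and 2 in H2030.

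H3K4me1, which the choice of the window did not use, had nearly equal densities in TGFb and LCC. The window held 37 H3K4me1 summits in TGFb and 36 in LCC, or 2.57 and 2.52 per 10000. The ratio was 1.02 (95% interval 0.647 to 1.61, counting error only), and it includes 1. In tiles, 1.45% of 7673 were called higher in TGFb and 1.37% lower, and the HMGA2 window was not called. Single H3K4me1 elements did differ: of 62, 10 were marked in TGFb and not in LCC and 7 in LCC and not in TGFb, with 13.7% and 13.6% genome-wide. The counts are 16.1% and 11.3% of the elements, on either side of the genome-wide shares.

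H3K4me1 was also looked up at the 18 H3K27ac elements marked in TGFb and in no LCC library. In the untreated LCC library, 9 of them (50.0%, Wilson 95% interval 29.0 to 71.0) had an H3K4me1 summit within 1 kb, and in TGFb also 9 had one. The LCC share depended on the matching distance, with 22.2% within 500 bp and 83.3% within 2000 bp. Genome-wide, 67.0% of such elements had LCC H3K4me1 within 1 kb, and 78.9% had TGFb H3K4me1. At the 14 elements marked in both LCC replicates, 3 (21.4%, 7.57 to 47.6) had LCC H3K4me1, and genome-wide this share was 86.9%. These are neighbouring elements of 1 locus, and the difference from the genome-wide share was not tested. In H2030, 8 of these 14 (57.1%) had an H3K4me1 summit within 1 kb, close to the genome-wide share of 61.9%.

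Where H3K4me1 and H3K27ac lay in the gene differed by stretch. From 80 to 120 kb downstream the H3K4me1 summits numbered 10 in TGFb, 7 in SO1, 11 in H2030 and 6 in LCC, and from 40 to 80 kb they numbered 3 in TGFb, 2 in SO1, 12 in H2030 and 4 in LCC. The stretch from 40 to 80 kb thus held more H3K27ac than H3K4me1 summits in TGFb, SO1 and LCC. In SO1 the H3K4me1 number was not particular to it, with 2 in the first 40 kb and 1 from 120 to 160 kb. Few summits did not mean weak ones, as the highest H3K4me1 score of the window lay in this stretch in TGFb, SO1 and LCC. At single places, the highest H3K4me1 element marked only in TGFb lay 28.0 kb downstream with a score of 20.1, and the highest marked only in LCC lay 21.2 kb downstream with a score of 24.0. A TGFb H3K4me1 summit of score 50.4 lay 124.3 kb downstream, in an element with an H2030 summit of score 13.5 and none of LCC, while LCC had a summit of score 64.1 at 122.1 kb, about 2 kb away. These last elements were chosen after their values were seen.

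H3K4me3 had few summits in the window. There were 2 in TGFb, 6 in SO1, 4 in H2030 and 3 in LCC, or 0.693, 2.10, 1.56 and 1.15 per 10000. The ratio to LCC was 0.602 in TGFb (95% interval 0.120 to 3.01), 1.82 in SO1 (0.499 to 6.64) and 1.36 in H2030 (0.340 to 5.41). All 3 intervals include 1, so no difference was detectable at these counts. None of the 3 was called among the tiles, where 0.393% were higher and 0.197% lower in TGFb, 0.843% and 0.590% in SO1 and 3.17% and 4.52% in H2030. Of the 6 H3K4me3 elements, 0 were marked in TGFb and not in LCC (10.6% genome-wide), 3 in SO1 and not in LCC (13.6%) and 2 in H2030 and not in LCC (19.9%). Besides the one at 68.0 kb, SO1 and H2030 shared one 124 kb downstream, with scores of 9.89 in SO1 and 10.7 in H2030. The remaining SO1 summit, 9.08 kb downstream, scored 4.36, and LCC alone had one of score 1.88 at 7.80 kb. This LCC element is the 1 that was marked in LCC and not in TGFb (4.22% genome-wide), SO1 (7.30%) or H2030 (20.8%), and 0 were marked in TGFb and SO1 and not in LCC (4.75%).

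SO1 was set against LCC with the same LCC lists, so its ratios share their controls with those of TGFb. H3K27ac in the window numbered 28 summits in SO1, or 4.98 per 10000, and the ratio to the LCC mean was 0.894, between 0.803 and 1.01 over single replicates. SO1 thus lay between the LCC replicates, at 4.94 and 6.20. In tiles, 2.34% were called higher in SO1 and 2.91% lower, and the HMGA2 window was not called. Of the 62 elements, 5 were in SO1 and in no LCC library and 5 in both LCC replicates and not in SO1 (8.06% each), with 12.5% and 6.24% genome-wide. The H3K27ac elements marked in TGFb and SO1 and in no LCC library numbered 3 (4.84%), with 5.46% genome-wide, and the H3K4me1 elements of that pattern also numbered 3, with 5.15% genome-wide.

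In SO1 H3K4me1 had fewer summits in the window. There were 19, against 36 in LCC, or 1.48 and 2.52 per 10000, a ratio of 0.588 (0.339 to 1.02). The interval reaches just past 1. In tiles, 4.00% were called higher and 6.32% lower in SO1, the HMGA2 window was not called, and 9.70% of tiles had a ratio at most as low. The H3K4me1 elements marked in LCC and not in SO1 numbered 17 of 62 (27.4%), with 18.8% genome-wide, and 7 (11.3%) were marked in SO1 and not in LCC, with 14.1% genome-wide. Several of the SO1 summits were near the head of the list: that at 55.1 kb downstream scored 124 (percentile 99.0), that at 68.5 kb scored 140 (99.5), that at 104.6 kb scored 126 (99.1) and that 45.4 kb upstream scored 106. The highest H3K4me1 element marked only in SO1 lay 10.9 kb downstream with a score of 71.8. From 120 kb downstream to the end of the window SO1 had 1 H3K4me1 summit, against 8 in LCC.

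In H2030 the window held fewer H3K27ac summits per 10000 than in LCC and more H3K4me1 summits, with an interval that includes 1 for H3K4me1. H3K27ac numbered 16 summits in H2030, or 3.05 per 10000, and the ratio to the LCC mean was 0.548, with 0.493 over replicate 2 and 0.618 over replicate 1. H3K4me1 numbered 44 summits, or 3.31 per 10000, and the ratio to LCC was 1.31 (0.848 to 2.03). Tiles differed widely for this line: 8.42% were called higher and 18.1% lower for H3K27ac, 9.58% higher and 21.7% lower for H3K4me1, and the HMGA2 window was called for neither mark. With scores of at least 10, H2030 had 9 H3K27ac summits, against 8 and 13 in the LCC replicates, and the ratio was 0.899. The count of summits under that score was thus where H2030 and LCC differed more.

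In the first 40 kb of the gene H2030 had 1 H3K27ac summit, that at the start, against 5 in LCC replicate 1 and 6 in LCC replicate 2. From 40 to 80 kb downstream it had 7, against 9 and 15 in the LCC replicates, and from 80 to 120 kb 3, against 5 and 7. From 120 to 160 kb it had 4, against 4 and 5, so the number in H2030 was close to that in LCC at this end alone. The H3K4me1 elements marked in H2030 and not in LCC numbered 27 of 62 (43.5%), with 25.8% genome-wide, and 16 (25.8%) were marked in LCC and not in H2030, with 30.4% genome-wide. For H3K27ac, 5 elements (8.06%) were in H2030 and in no LCC library, with 21.9% genome-wide, and 8 (12.9%) in both LCC replicates and not in H2030, with 16.3% genome-wide. Its H3K4me1 scores were low, with a median of 6.48 in the window and 8.44 over the list and a highest of 37.4. The highest H3K4me1 element marked only in H2030 lay 3.40 kb downstream of the start, with a score of 27.8.

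The edges of the window did not fall at gaps in every list: a TGFb H3K4me1 summit lay 0.942 kb before the left edge and another 1.17 kb inside it. In TGFb the last H3K27ac summit before the window stood at 12:66140122 with a score of 3.83, the first inside it at 12:66151038 with 7.11, the last inside it at 12:66356944 with 7.71 and the first after it at 12:66430008 with 5.01. No H3K27ac summit of any list lay in the last 61.1 kb of the window. The tile before the window held 38 H3K27ac summits in TGFb, 20 in SO1, 25 in H2030 and 16 and 20 in the LCC replicates. The tile after it held 6 in TGFb, 4 in SO1, 6 in H2030 and 2 and 4 in LCC. These are counts not scaled to list length, and the TGFb list was the longest. TGFb thus exceeded both LCC replicates in the tiles on either side as well. Relative to each replicate, the excess was larger in both tiles than in the window (51 against 25 and 39). The tile after the window held few summits. The higher number in TGFb was therefore not confined to the HMGA2 window. LLPH is the nearest protein-coding gene after HMGA2 in the RefSeq order.

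The tiles whose pattern over the 13 libraries was most like that of the window were found by the Pearson correlation of centred log2 densities among 5311 tiles with at least 5 summits on average. The first was 4:124200001-124470000 with r = 0.890, followed by 3:33210001-33480000 with 0.889 and 3:138240001-138510000 with 0.878. The other 2 of the first 5 were 10:33480001-33750000 with 0.878 and 12:123390001-123660000 with 0.877. The 13 points share 3 marks that differ in density everywhere and the list lengths, so the correlations describe likeness and carry no test. Of the 5, only that on chromosome 10 had as many TGFb H3K27ac summits as the HMGA2 window, 51, with 30 in SO1, 32 in H2030 and 39 in each LCC replicate.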

How the data were processed

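Peak summit lists of 13 ChIP-seq libraries were used; the 5 inputs were not analysed here. The submitters' processing notes name the hg19 build and the tools Bowtie2, SAMtools and deepTools, and the sources used here do not give the peak caller. The score that the authors deposited with each peak was taken to be −log10 of a p- or q-value, since the lowest, 1.30107, lies just above 1.30103, the −log10 of 0.05. Peak names show that the authors called peaks per library. Counts per peak and depth are unknown, so precision is limited to counting error over summits.

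Groups were taken from the sample titles. Only chromosomes 1 to 22 and X were kept, from 947675 summits in all, and densities are summits per 10000 of a list. Elements merged summits within 1000 bp, marks were matched within 1000 bp, and domains joined gaps of at most 10 kb. No test across conditions was run and no p-value is given, because TGFb, SO1 and H2030 each have a single library of a mark. Intervals for shares are Wilson 95% intervals. For ratios of single lists, the Wilson 95% interval of the condition's share of the summits of both lists was turned into odds and scaled by list length. Both cover counting error only. Tiles of 270 kb needed a mean of at least 3 summits and were called at 2-fold. The tile calls were tried on simulated counts with planted changes larger than 2-fold. How well changes of 2-fold or less are found was not examined.

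Elements were named by a rule: per mark the 3 with the highest score, those at the start, and for each condition the highest-scoring one marked in it alone. The window, its members, the lists and the rules were chosen with earlier results of these data known. Neighbouring genes come from the RefSeq GRCh38.p14 gene order, with no coordinates taken from it. A list of other genes of the pathway was to be described with an hg19 annotation, which was not used here. Alternatives changed the score minimum, list lengths, scaling, distances, window width, tile minimum and LCC replicates. Python 3.11.15, numpy 2.4.6, pandas 2.3.3, scipy 1.17.1 and matplotlib 3.10.9 were used.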

Additional observations from a re-analysis of the deposited data

How the results depend on the processing

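The TGFb to LCC ratio of H3K27ac density stayed above 1 under its 6 alternatives, between 1.19 and 1.59, the highest being summits as counted (1.59), and leaving out each LCC replicate gave 1.21 to 1.52. The H2030 ratio stayed below 1 but moved to 0.899 with scores of at least 10 and 0.681 with lists of equal length, and was 0.493 to 0.618 over single replicates. The SO1 ratio for H3K27ac crossed 1 without LCC replicate 2 (1.01, against 0.803 without replicate 1), and the TGFb ratio for H3K4me1 reached 1 with lists of equal length and 0.930 without the outer 50 kb. The elements marked in TGFb and in no LCC library numbered 30 with merging within 500 bp, 6 within 2000 bp, 9 with scores of at least 10, 12 with lists of equal length and 19 to 30 without each replicate. Their share with LCC H3K4me1 was 22.2% within 500 bp, 83.3% within 2000 bp and 47.4% to 50.0% without each replicate. The domain ratio was 0.908 with scores of at least 10, 2.27 with lists of equal length, 3.65 with joins of 5 kb, 1.66 with joins of 20 kb and 1.97 to 4.18 over single replicates. Added after seeing the data, the TGFb domain ranked 1 by summits with joins of 5 kb, 5 with 20 kb and 247 with scores of at least 10. The TGFb H3K4me3 summit was found within 5000 bp of the start (percentile 95.2), not within 2000 bp, and no list had one within 1000 bp. Of 66 alternatives to the values that answer a comparison, 56 left them within the set limits, and 10 moved them. The causes were not tested. For ratios of H3K27ac density and domain length, the limits came from the 2 single-replicate ratios, so leaving out 1 replicate could hardly leave them. For H3K4me1 and H3K4me3 density the limits were counting intervals, as wide as 0.499 to 6.64 (H3K4me3 in SO1). The tally is therefore no measure of robustness. The HMGA2 window was not called under the other tile minimums in which it was included. No paired analysis was possible because only LCC H3K27ac has numbered replicates with summit lists. Single libraries, unknown depth and lists without peak widths limit every comparison: a wide peak split into several summits cannot be told apart from several peaks.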

Other observations

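Spacing differed between the marks inside the HMGA2 window. The median distance between neighbouring H3K27ac summits was 2.80 kb in TGFb, 3.95 kb in SO1, 4.22 kb in H2030, 2.92 kb in LCC replicate 1 and 2.89 kb in LCC replicate 2. TGFb and both LCC replicates were thus close in spacing, although the window held 51 summits in TGFb against 25 and 39 in the LCC replicates. Within the longest domain, TGFb had 3.67 summits per 10 kb, against 3.13 in LCC replicate 1 and 3.28 in LCC replicate 2. H3K4me1 summits stood at a median of 3.58 kb in TGFb, 8.36 kb in SO1, 2.88 kb in H2030 and 3.30 kb in LCC. For this mark the H2030 list had a domain from 35.7 to 141.6 kb downstream with 33 summits, while the longest domain of the window was 28.2 kb with 13 summits in TGFb, 22.6 kb with 7 in SO1 and 27.4 kb with 10 in LCC.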
